A study of Mus musculus with 5 samples.

Results

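The genes described here are the D-type cyclins Ccnd1, Ccnd2 and Ccnd3, the kinases Cdk4 and Cdk6 that they switch on, the transcription factors E2f1, E2f2 and E2f3, and the pocket proteins Rb1 and Rbl1. They were taken by symbol. All 10 were found on the array, through 15 probes, among 20016 named genes with 26408 probes. A gene with several probes is represented by its brightest probe. For these 10 genes the other probes are given beside it, while further genes are shown by the brightest probe only.

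Each of the 5 one-colour arrays held total RNA from mouse tumour cells of a strain background mixed from C57/BL6, 129 and ICR. The lines derive from sarcomas that formed in soft tissue after induction of EWS/ATF1, the fusion protein of clear cell sarcoma, and all of them carry its doxycycline-inducible allele, the controls included. Cells were harvested after 3 h as a control, at a low dose (lowDox) or at a high dose (highDox), and after 48 h as a control or at the high dose, with 1 array for each of these 5 groups. The concentrations, the doxycycline state of the controls, the driver of the allele, the tumour line behind each array and the sex and age of the mice are not stated in the sources used here. The comparisons ask which genes follow the induced fusion early, late and by dose.

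In a dividing cell the D cyclins join CDK4 or CDK6, and the complex phosphorylates RB1 and its relatives RBL1 (p107) and RBL2 (p130). The pocket proteins then release E2F factors, which turn on genes for DNA replication and also genes of the E2F and pocket protein families themselves. Ccnd1 is a classical gene of growth factor signalling and AP-1, and inhibitors of the INK4 class, encoded by Cdkn2a and Cdkn2b among others, hold CDK4 and CDK6 inactive. Loss of this restraint is a common feature of sarcomas.

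All levels are log2 signals relative to the 75th percentile of the array, which was 725, 585 and 556 units at 3 h (control, low, high) and 649 and 420 units at 48 h (control, high). At least 55.5% of probes on each array were well above background, and 0 spots were saturated. No difference has a replicate check, because each group is 1 array, and the number of arrays limits every statement. The call of a higher or lower gene needed a 2-fold difference, 1 on the log2 scale, and signals well above background on the pair of arrays. The scanner's own error, about 0.20 for a difference at most of these probes, holds no variation between cultures. Nor does the SD of a difference between single spots of 2 arrays, with medians of 0.0887 to 0.0918 over probes spotted 10 times. Fos, the gene of the series title, stood at -2.22, -0.49 and 2.18 at 3 h (control, low, high) and at -2.22 and 2.86 at 48 h (control, high). Centring arrays on their median moved the median difference of all genes by more than 0.1 in 2 comparisons, from -0.01 to -0.13 for the high dose at 3 h and from 0.01 to -0.12 between the controls. It also moved the part of the calls that lay upward from 56.1% to 40.7% and from 64.8% to 50.1% in these, and from 57.5% to 46.8% for the low dose. Of the labelled cell type, tumour cells, no defining markers exist, but all 5 mesenchymal markers, among them Vim, were above background on all 5 arrays. So were 5 of 6 markers of neural crest and melanocytes, Sox10 among them, while Mlana was above background on 2 arrays. Ngfr, of the same list, was at 4.25 in the 48 h control and at -2.20 at 48 h of the high dose. No other measured gene of that list was called in this comparison. Their differences were 0.72 (S100b), 0.33 (Mitf), -0.21 (Sox10) and -0.62 (Pmel). At 48 h of the high dose 3 of those 5 mesenchymal genes were lower than in the control.

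The 3 D cyclins did not move together. Ccnd1 was lower on 1 of the dosed 3 h arrays and on both 48 h arrays than on the 3 h control, Ccnd2 was higher on the 48 h high-dose array alone, and Ccnd3 stayed under 2-fold throughout. Ccnd1 had levels of -2.34, -2.41 and -4.77 at 3 h (control, low, high) and of -4.50 and -4.15 at 48 h (control, high). The 3 h control and low-dose arrays thus formed a high pair, and the other 3 arrays lay at least 1.74 below them. Within each of these sets, neighbouring values differed by less than 2 scanner errors.

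The high dose at 3 h was 5.39-fold lower in Ccnd1 than the 3 h control (log2 difference -2.43, scanner error 0.27) and 5.14-fold lower than the low dose. Only 21 of 14005 measured genes had a difference as low in the first of these comparisons. The 48 h control was 4.46-fold lower than the 3 h control as well (-2.16, scanner error 0.26). Against the 48 h control the 3 h high dose differed by -0.27 and the low dose by 2.09, so the direction and size of the Ccnd1 difference depended on which control array was used. At 48 h the high dose differed from its control by 0.35, with a scanner error of 0.30, and from the 3 h control by -1.81, which is past the 2-fold line in the other direction.

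Ccnd1 was read by 1 probe with 1 spot, and its 3 low values lay near the dimmest signals well above background on the same arrays, at -5.50, -5.45 and -5.28. Whether this probe reads all Ccnd1 transcripts was not tested. With normexp background correction on the median spot signal, an alternative added after the data were seen, the difference at 3 h of the high dose shrank to -1.10 and that between the controls to -1.10.

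Some markers of macrophages, Tyrobp, Lyz2 and C1qc, divided the 3 h arrays as Ccnd1 did. Csf1r, Itgam and Adgre1, above background on all 5 arrays, did not. Their differences from the control at 3 h of the high dose were 0.09, 0.09 and -0.26. Of 8 listed markers 6 and 7 were above background on the 3 h control and low-dose arrays, 3 on the 3 h high-dose array, 3 on the 48 h control and 7 on the 48 h high-dose array. Tyrobp, an adaptor of myeloid receptors, was at -2.75 and -3.52 on the first 2 arrays, at -7.61 and -7.51 on the 3 h high-dose and 48 h control arrays, where it was not above background, and at -1.03 on the 48 h high-dose array. On that last array Ccnd1 was low and Tyrobp at its highest. Summed on a linear scale, the list ran from 26.1 to 58.3 times the 75th percentile signal, highest at 48 h of the high dose, and most of the sum came from Itgam and Csf1r. The defining markers Ptprc and C1qa were above background on 1 array each, the 3 h low-dose and the 48 h high-dose array. Of 4 epithelial markers 2 were above background at 3 h of the high dose, 1 on the 48 h control array and 0 on the other 3 arrays. Epcam was at -2.32 at 3 h of the high dose, at least 7.26-fold above the 3 h control, and was not above background elsewhere. The part of either marker list in the differences of Ccnd1 and the other members was not tested.

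Ccnd2, the D cyclin that growth signals raise in many cells, was at 4.88, 4.75 and 4.77 at 3 h (control, low, high) and at 4.99 and 7.36 at 48 h (control, high). Neighbours among the first 4 arrays differed by less than 1 scanner error, and the last array stood apart from all of them. The high dose at 48 h was 5.19-fold above its control (2.38, scanner error 0.20), a difference reached by 302 of 13739 genes, and 6.04-fold above the high dose at 3 h. Against the 3 h control the difference was 2.48. Under quantile normalization the contrast with the 48 h control was 1.84.

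Ccnd3 had levels of 3.94, 3.61 and 3.41 at 3 h (control, low, high), and of 3.64 and 4.24 at 48 h (control, high). No neighbouring pair in this order of levels was separated by more than 2 scanner errors. The largest contrast with a control was 0.60 at 48 h of the high dose, or 1.51-fold. Its second probe gave 0.64 for the same contrast and followed the same course, with the 3 h high-dose array lowest and the 48 h high-dose array highest on both.

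**Figure D1:**
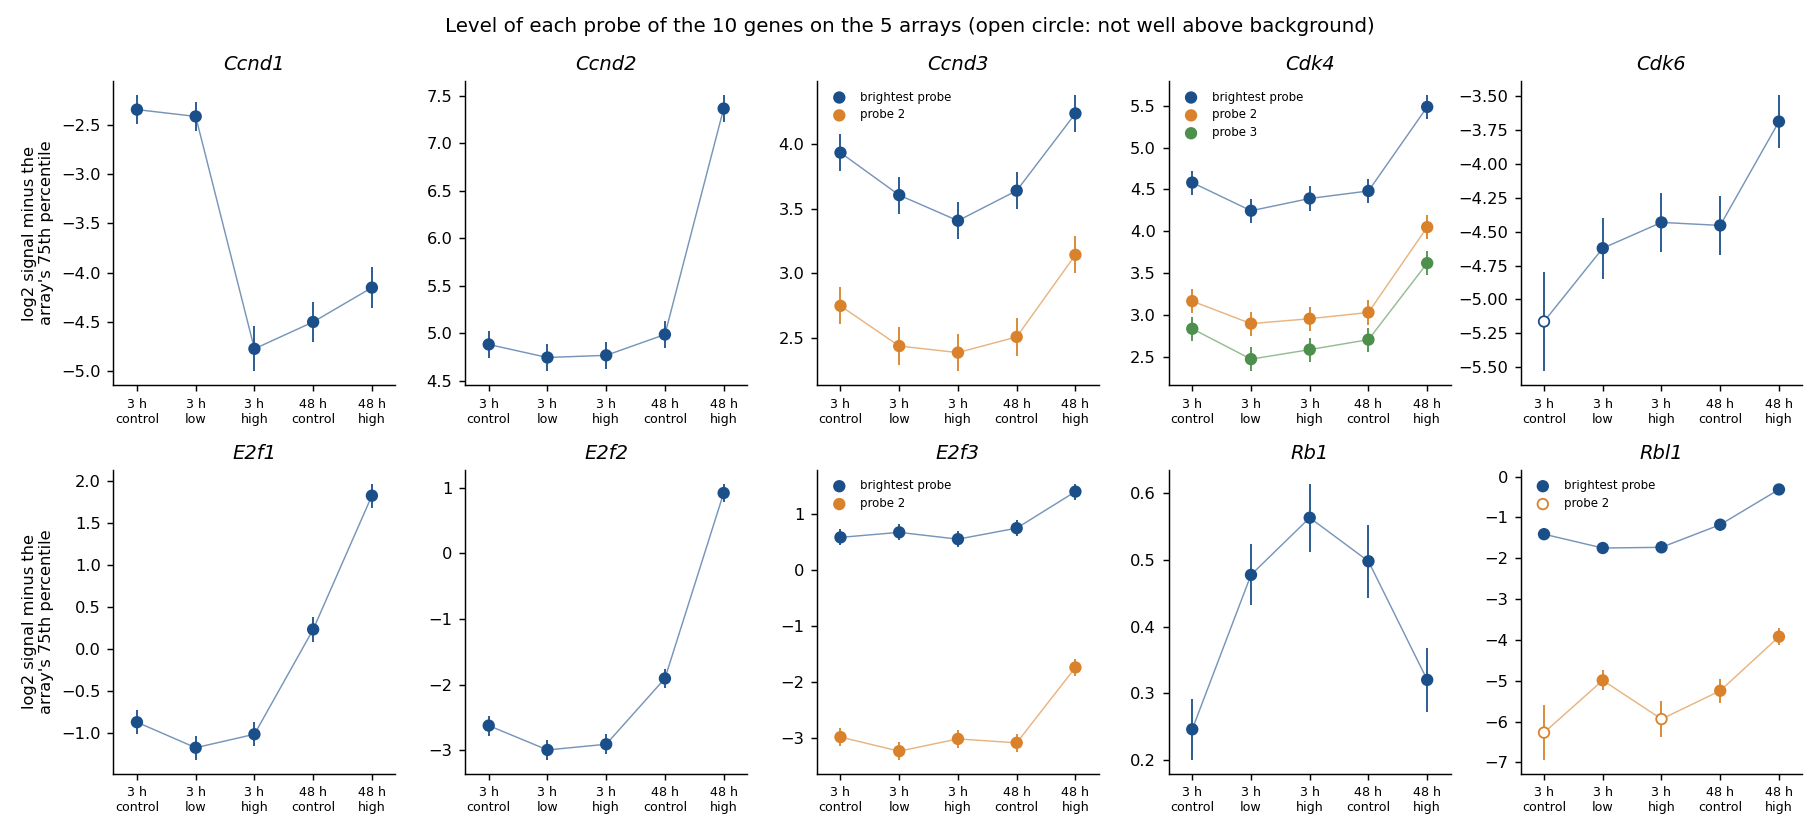
Level of every probe of the 10 genes on each array, as log2 signal minus the array's 75th percentile, with the scanner error as a bar and an open circle where the probe was not well above background. Thin lines only link the points of a probe. Ccnd1 is high on the 3 h control and low-dose arrays, while Ccnd2, Ccnd3, Cdk4, Cdk6, E2f1, E2f2, E2f3 and Rbl1 are highest on the 48 h high-dose array.

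The partner kinases were higher on the 48 h high-dose array, Cdk4 at the 2-fold line and Cdk6 below it. In the contrast with the 48 h control, 6 reference genes ran from -0.23 (Hprt) to 0.87 (Gapdh). Their median was 0.35, against 0.05 over all genes. The contrasts of Cdk6, Rbl1, E2f3, Ccnd3, Ccnd1 and Rb1 lay within that range. Cdk4 stood at 4.58, 4.25 and 4.39 at 3 h (control, low, high) and at 4.48 and 5.49 at 48 h (control, high). The 48 h high-dose value lay above all 4 others by more than 2 scanner errors, and no neighbours among those 4 were so separated. The contrast with the 48 h control was 2.01-fold on the brightest probe (scanner error 0.20 on the log2 scale) and spanned 0.91 to 1.02 over 3 probes. It was 0.67 under quantile normalization, 0.86 with normexp, 0.98 as the mean of the probes and 0.90 against the 3 h control, so each of these settings ended the call.

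Cdk6, the other catalytic partner, was dim. It was not well above background on the 3 h control array, where its level was -5.16, and had levels of -4.62 and -4.43 at the low and high dose, -4.45 in the 48 h control and -3.69 at 48 h of the high dose. Only the last of these lay more than 2 scanner errors from its neighbour. The high dose at 48 h was 1.70-fold above its control (0.77, scanner error 0.29). Against the 3 h control no difference could be called. At 3 h of the high dose the value was 1.66-fold (0.73, scanner error 0.43), and 0.32 with normexp. It rests on the probe's own undetected level on the control array, so the difference may be smaller.

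Among the activator E2F genes, E2f2 and E2f1 were higher at 48 h of the high dose, and both were also higher in the 48 h control than in any 3 h culture. E2f1 had levels of -0.87, -1.17 and -1.01 at 3 h (control, low, high) and of 0.23 and 1.83 at 48 h (control, high). The 3 early arrays were not separated by 2 scanner errors, whereas both steps up to the 48 h control and from it to the 48 h high dose were. The high dose at 48 h was 3.01-fold above its control (1.59, scanner error 0.20). The 48 h control was 2.15-fold above the 3 h control (1.10, scanner error 0.20), a difference that 272 of 14018 genes reached. It fell below 2-fold when arrays were centred on their median or corrected with normexp.

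E2f2 showed the widest span of the 10 genes, 3.92. Its levels were -2.62, -2.99 and -2.91 at 3 h (control, low, high) and of -1.91 and 0.92 at 48 h (control, high). As with E2f1, the early arrays lay together, with the 48 h control above them and the 48 h high dose at the top. The high dose exceeded the 48 h control 7.09-fold (2.83, scanner error 0.21), which 212 of 13739 genes reached, and the 3 h high dose 14.2-fold (3.83). The difference between the controls was 0.72, or 1.65-fold.

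Because the 48 h control was the higher of the control arrays in both genes, its use as reference changed the 3 h contrasts. The high dose at 3 h differed from its own control by -0.14 in E2f1 and -0.28 in E2f2, and against the 48 h control E2f1 was at -1.25 and E2f2 was just past the 2-fold line. The low dose differed from the 48 h control by -1.41 and -1.09.

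E2f3, the third activator, was at 0.58, 0.67 and 0.55 at 3 h (control, low, high) and at 0.74 and 1.40 at 48 h (control, high). Its first 4 values lay together and the last was higher by more than 2 scanner errors, 0.65 above its control or 1.57-fold. A second, dimmer probe gave -2.99, -3.24, -3.02, -3.09 and -1.75 on the same arrays and a contrast of 1.35, so the probes lay on different sides of 2-fold.

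The pocket protein genes differed from each other. Rb1, the retinoblastoma gene, spanned only 0.32 over the 5 arrays, the narrowest of the 10 genes, and Rbl1, whose protein p107 binds the repressor E2Fs, was highest at 48 h of the high dose. Rb1 had levels of 0.25, 0.48 and 0.56 at 3 h (control, low, high) and of 0.50 and 0.32 at 48 h (control, high). The 3 h control and the 48 h high dose were the low pair, separated from the other 3 arrays by more than 2 scanner errors. Its probe was spotted 10 times, and 7 to 10 of these spots were used per array. The SD between them was 0.0495 on the 3 h control array (n = 10 spots), 0.0494 at 3 h of the high dose (n = 8 spots), 0.0226 on the 48 h control array (n = 7 spots) and 0.0364 at 48 h of the high dose (n = 9 spots). These SDs are technical. The contrast with the control was 0.32 at 3 h of the high dose (0.20 with median centring and 0.07 against the 48 h control) and -0.18 at 48 h (0.07 against the 3 h control), so its direction at 48 h turned with the control used.

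Rbl1 was at -1.41, -1.75 and -1.73 at 3 h (control, low, high), at -1.18 in the 48 h control and at -0.31 in the 48 h high dose. The last value was the only one more than 2 scanner errors from its neighbour. The high dose was 1.82-fold above the 48 h control (0.86, scanner error 0.20) and 2.67-fold above the 3 h high dose (1.42). A second probe, for another transcript, was not well above background on the 3 h control and 3 h high-dose arrays and gave a contrast of 1.33 at 48 h.

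RefSeq promoter sequences of GRCm38.p6, which reach from before to shortly after each start, were searched on both strands for short motifs. The table held 10 promoters for 7 of the genes, with none for Ccnd1, Ccnd2 and Rb1. The 3 E2F motifs searched were TTTCCCGC, TTTGGCGC and TTTCGCGC, which do not overlap as words, and 1.84% of 32851 promoters held at least 1 of them. Rbl1 held TTTCGCGC at bases -18 to -11 from its start, E2f3 held TTTCCCGC on the opposite strand at -11 to -4 in its first promoter, and E2f2 held TTTGGCGC at 40 to 47 after the start of its first promoter. The 60 bases before the start are shown for Rbl1 and E2f3, which carry an E2F word upstream of the start, and for the second promoter of Ccnd3, which carries TGACG, the core of the cyclic AMP response element that ATF1 binds. Capitals mark the motifs, and in E2f3 the earlier capitals are the CHR word TTTGAA. The Rbl1 stretch is chr2:157204535-157204594 on the minus strand, the E2f3 stretch is chr13:29986064-29986123 on the minus strand, and the Ccnd3 stretch is chr17:47593407-47593466 on the plus strand.
Rbl1: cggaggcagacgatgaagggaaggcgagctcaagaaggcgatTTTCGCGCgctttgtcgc
E2f3: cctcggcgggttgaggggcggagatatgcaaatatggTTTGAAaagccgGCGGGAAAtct
Ccnd3: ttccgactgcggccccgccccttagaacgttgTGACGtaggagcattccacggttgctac

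The core TGACG was found in both promoters of Ccnd3, the second of E2f3 and the single ones of Cdk4, Cdk6 and E2f1. It was absent from the first of E2f3, both of E2f2 and that of Rbl1. Of all promoters, counted by promoter and not by gene, 20.8% held it. The full site TGACGTCA (1.79% of all promoters) and the AP-1 word TGANTCA (7.81%) were found in none of the 10 promoters. Every full site also contains the core. The CHR word TTTGAA, found in 17.9% of all promoters, was in the second promoter of E2f2 and the first of E2f3. A match describes the letters only.

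Counted by comparison, most calls among the members fell at 48 h of the high dose. Among 9 members measured in the early high-dose comparison 0 were higher and 1, Ccnd1, was lower, where 3.30% of all genes were called, 1.85% higher and 1.45% lower. The median of the members was -0.19, against -0.01 over all genes. At the low dose 0 of 9 were called, where 1.37% of all genes were (0.789% higher and 0.583% lower), and their values ran from -0.37 to 0.23. Between high and low dose Ccnd1 alone of 10 was called, where 2.18% of all genes were (1.27% higher and 0.913% lower), and the other members lay between -0.20 and 0.19. Both 3 h doses share the 3 h control array, so their differences from it are not independent.

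At 48 h of the high dose 4 of 10 members were higher than in the 48 h control, Ccnd2, Cdk4, E2f1 and E2f2, and 0 were lower. Of all genes, 20.0% were called against the 48 h control, 9.94% higher and 10.1% lower. The median of the members was 0.81, against 0.05 over all genes, and Rb1 was the only member with a value below 0. Against the 3 h control, Ccnd2, E2f1, E2f2 and Rbl1 were higher and Ccnd1 lower among 9 measured members. In that comparison 18.3% of all genes were called. Set against the 3 h high dose, 5 of 10 were higher, the 4 called against the 48 h control and Rbl1. There 17.6% of all genes were called, 9.17% higher and 8.38% lower. Between the control arrays E2f1 was higher and Ccnd1 lower among 9 measured members, where 3.87% of all genes were called, 2.50% higher and 1.36% lower.

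**Figure D2:**
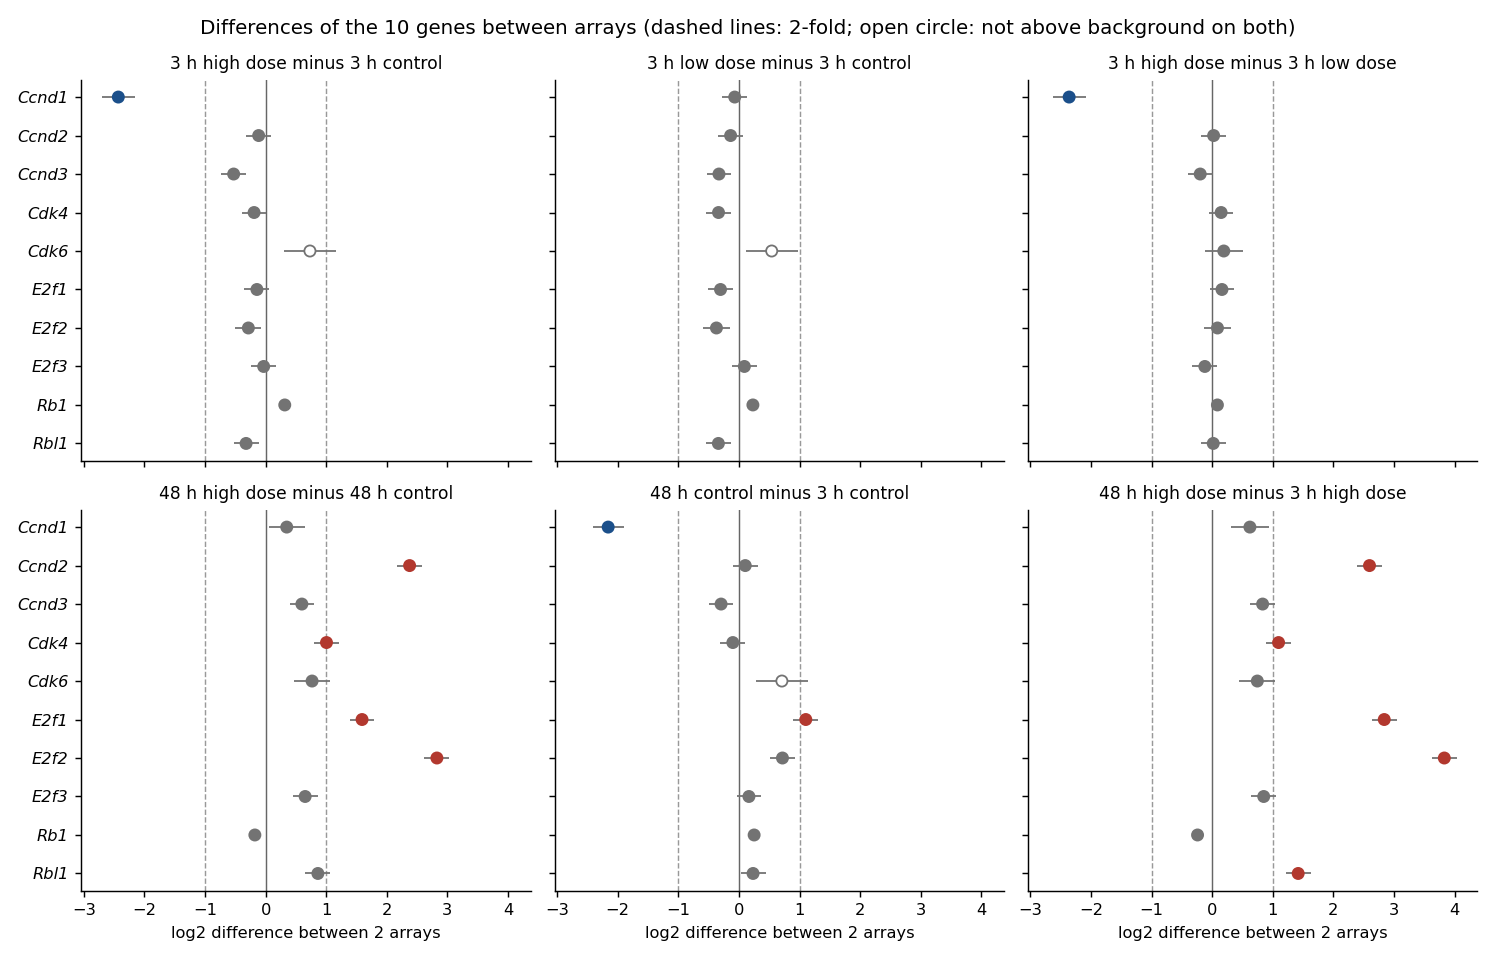
Log2 difference of each of the 10 genes in 6 comparisons of arrays, with the scanner error as a bar, dashed lines at 2-fold, red for higher, blue for lower and an open circle where the gene was not above background on both arrays. Ccnd1 is below -2 in 3 panels, and Ccnd2, E2f1 and E2f2 exceed 1 in the panels of the 48 h high dose.

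The one fit with a residual degree of freedom, limma on the 4 arrays other than the low dose, modelling time plus dose, called 0 of 14601 genes in either term after Benjamini-Hochberg adjustment, 0.00% of those tested. At an unadjusted p below 0.05 it had 506 genes for the dose and 340 for the time. All 10 members were tested. For the dose, their adjusted p in limma ran from 0.884 to 0.985, with E2f2 at 1.27 (standard error 0.85) and Ccnd1 at -1.04 (0.84). For the time, E2f1 had a term of 1.97 (standard error 0.51, unadjusted p = 0.0186, adjusted p = 0.9995 in limma), and its level was higher at 48 h than at 3 h in both the control and the high-dose pair. A dose effect seen at a single time adds to the residual in this fit.

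Further genes of the pathway were grouped by role, and their counts at 48 h stand beside 9.94% of all genes called higher and 10.1% called lower. The small lists of E2F partners, cyclin D turnover, RB corepressors and the CDK-activating kinase hold 1 to 3 called genes each, and nothing particular to them is read from these counts. Target genes of E2F in S phase were higher at 48 h of the high dose in 20 of 22 measured cases and lower in 0, with a median of 2.28 against 0.05 over all genes. Rrm2, a subunit of ribonucleotide reductase, was 59.7-fold higher, Uhrf1, a partner of DNA maintenance methylation, 31.2-fold and Mcm5, of the replicative helicase, 26.4-fold. The remaining pair, Tyms and Pola1, named because they were left over, stood at 0.78 and 0.96. Orc1, of the origin recognition complex and picked with its value known, was at least 5.19-fold higher. At 3 h of the high dose 0 of 21 were higher and 1, the thymidine kinase gene Tk1, was lower at -1.26, with a list median of 0.05.

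In the list of E and A cyclins with their kinases, 3 of 5 measured genes were higher at 48 h and 0 lower. Ccna2, the cyclin of S phase and mitosis, was 76.6-fold higher, Ccne1, the cyclin that acts after the D cyclins, 11.7-fold, and the mitotic kinase gene Cdk1 9.46-fold. Cdk2 and Cdc25a, the measured genes left over, stood at 0.70 and 0.71. The germ line cyclin gene Ccna1, picked with its value known, was at least 7.59-fold higher. At 3 h all 5 measured genes were under 2-fold, with Ccna2 at -0.52.

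Of the other E2F family genes, their DP partners and Rbl2, 1 of 7 measured genes was higher at 48 h and 0 lower, with a median of 0.07. That gene was E2f7, a repressor E2F, at 2.36-fold, and E2f8, its close relative and picked with its value known, was at least 42.5-fold higher. Tfdp1, the DP partner of the activator E2Fs, stood at 0.98 and Tfdp2 at -0.84. Among the measured genes of this list, the highest value at 3 h of the high dose was E2f5 at 0.28. The MuvB and DREAM list had 2 of 7 higher and 0 lower, the mitotic factors Foxm1 at 21.9-fold and Mybl2 at 11.4-fold, while Lin9, a core subunit, was at 0.67. At 3 h Foxm1 was at 0.39, the largest of the list.

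Of the CDK inhibitor genes 3 of 7 were lower and 1 was higher at 48 h, with a median of -0.88. Cdkn2b was 16.0-fold lower, Cdkn2a 4.09-fold and Cdkn1c 2.37-fold, and Cdkn2d, chosen after its value was seen, was higher at 1.02. At 3 h the largest difference of the list was -0.74, in Cdkn2d. Of 7 genes of cyclin D turnover 2 were lower at 48 h, Cryab at 5.39-fold and Fbxo31, a subunit of a ubiquitin ligase for cyclin D1, at 2.89-fold, and Usp2, encoding a deubiquitinase, was 2.12-fold higher. Usp2 was at 0.52 at 3 h. The RB corepressor list had 2 of 9 higher, Suv39h1 at 3.13-fold and Rbbp8 at 3.04-fold, and 1 lower, the chromatin remodelling ATPase gene Smarca2 at 3.09-fold, while Rbbp8 was at 0.92 at 3 h. In the CDK-activating kinase, Ccnh was 2.19-fold lower at 48 h, Cdk7 and Mnat1 were at 0.32 and -0.03, and Ccnh was at -0.23 at 3 h.

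**Figure D3:**
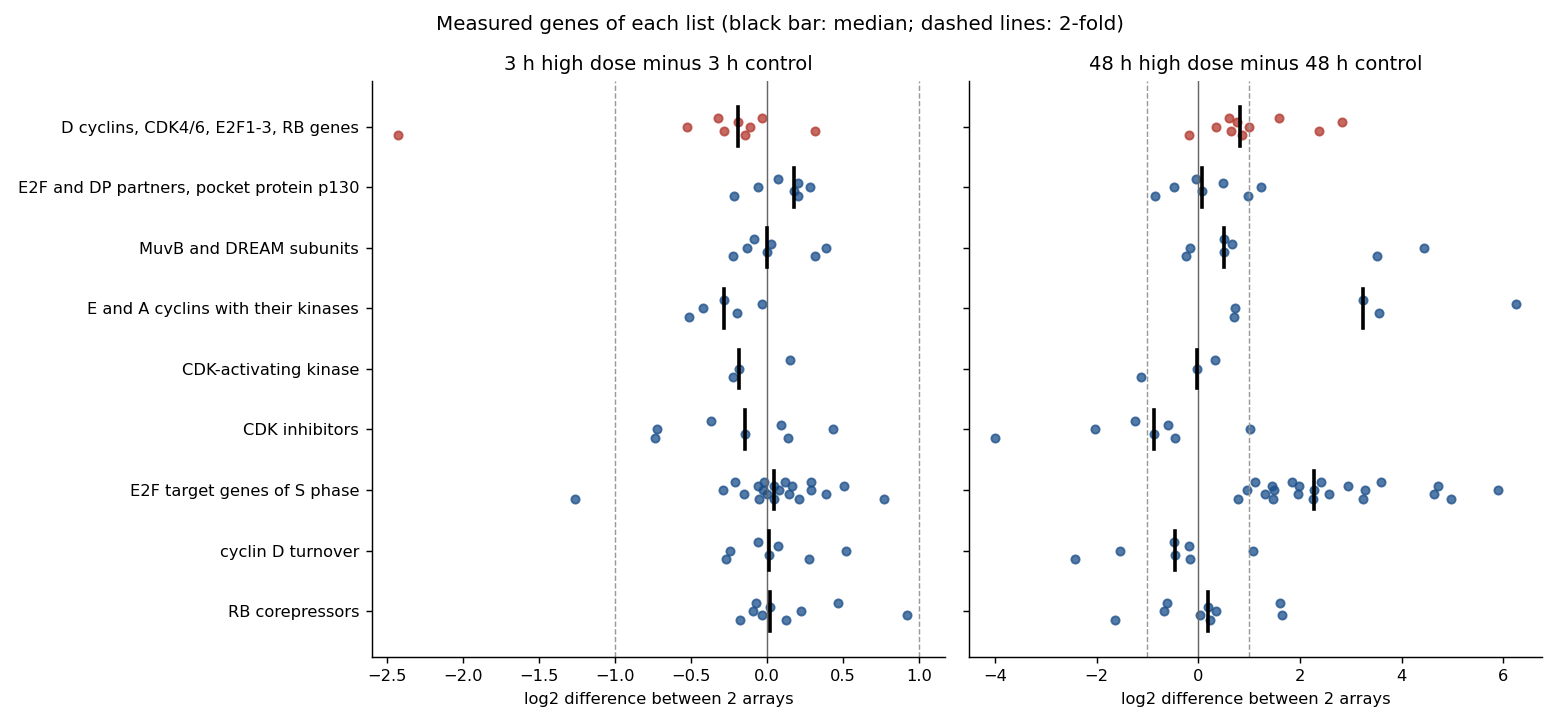
Log2 difference of each measured gene of 9 groups at 3 h and at 48 h of the high dose, each against its control, with a black bar at the group's median and dashed lines at 2-fold. At 48 h the E2F target genes centre on 2.28 and the CDK inhibitors on -0.88, while at 3 h all medians lie between -0.28 and 0.18.

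To find genes of like course, each gene was centred on its own mean and compared over the 5 arrays by root mean square distance, among 13463 genes above background on all of them. For Ccnd1 the nearest was Srpx, which encodes a secreted sushi-repeat protein, at a distance of 0.133, followed by the matrix gene Efemp1 at 0.337 and the catenin gene Ctnna2 at 0.374. Srpx had levels of -0.88 and -0.93 on the 3 h control and low-dose arrays and of -3.32 at 3 h of the high dose and -3.37 and -2.72 at 48 h (control, high), the same division of arrays as Ccnd1. For Ccnd2 the nearest were Tyms-ps, Mastl and Tmem238 (0.0579 to 0.0821), for Cdk4 Cenpj, Gm10406 and Gltp (0.0310 to 0.0561), and for Cdk6, which was below background on 1 array, Tafa5, Adgrb1 and Hipk1 (0.0565 to 0.0864). Mastl and Cenpj serve mitotic entry and centriole growth. For E2f1 they were Gsdma, Syce2 and Slc1a7 (0.147 to 0.180), for E2f2 the kinase gene Cdk1 at 0.146 with Trim38 and Speer4b, and for Rbl1 Pabpc1l, 1810010H24Rik and Prox2 (0.0596 to 0.0686). Among the members themselves Cdk4 and Rbl1 were the closest pair at 0.164, and Ccnd1 and E2f2 the farthest at 2.07.

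**Figure D4:**
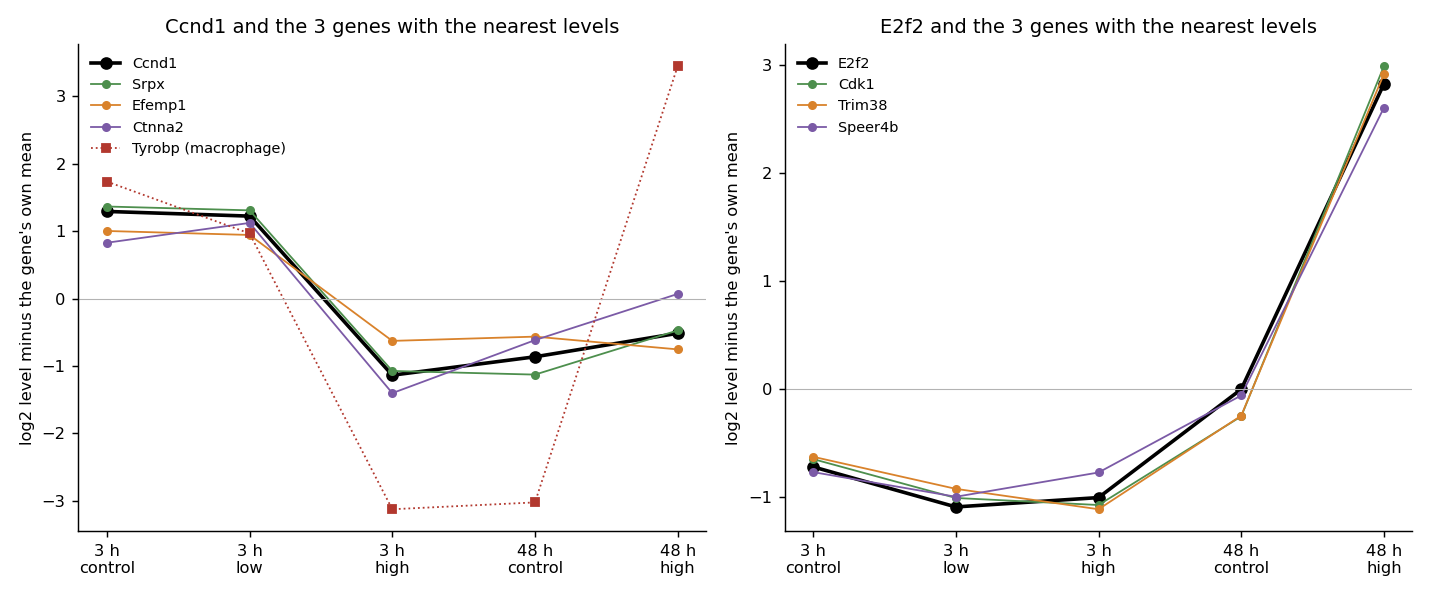
Log2 level minus the gene's own mean on the 5 arrays for Ccnd1 (left) and E2f2 (right) with the 3 genes of smallest root mean square distance, and the macrophage gene Tyrobp beside Ccnd1. Srpx lies close to Ccnd1 on every array, while Tyrobp departs from it on the 48 h high-dose array, where it is highest.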

How the data were processed

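Total RNA was labelled with Cy3 and hybridised to 1-colour arrays, per the labels' protocols. The deposited intensities were read with Agilent Feature Extraction 10.7.3.1, per the submitters' processing notes, and the processed intensity was background-subtracted and detrended within each array, per the file headers. The authors' value table holds the same intensities on a linear scale. The flags, 0 or 1, are those of the extraction software. The labels give 1 sample per group, and all 5 arrays share 1 slide.

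Outlier spots (111 to 146 per array) were left out, log2 processed signals were reduced by the array's 75th percentile, with the mean taken over the spots of each probe. Above background means that at least 0.5 of the spots carried that flag. Names came from accessions matched, without versions, to RefSeq genes of GRCm38.p6: 26408 of 55664 probes had 1 symbol, 0 several and 29256 none. For a bound, the brighter array was divided by the floor of the dim one, which is the higher of its dimmest detected signal and the probe's own.

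The fit used limma 3.58.1 in R 4.3.3, and both call rules were tested on simulated data, where the fit missed nearly all changes of the size seen in the members. Alternatives were median centring, quantile normalization, normexp (offset 50), no filter, the mean of probes, the value table, the other control and eBayes without trend. The planned normexp on mean spot signals was not run, because the columns used hold no such signal, and normexp on the median spot signal was added after the data were seen. Named list genes were the 3 with the largest difference at 48 h and the 1 at 3 h of the high dose, and the 3 nearest genes were sought for members spanning at least 1. Members and lists were chosen with earlier results of these data known.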

Additional observations from a re-analysis of the deposited data

Results flagged for a closer look

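In 9 of the 10 genes the high-dose difference had opposite signs at 3 h and at 48 h, which is the reason they stand here. The share of all genes with opposite signs was not counted, so 9 of 10 has no base to stand beside. Of all genes, 47.6% lay above 0 at 3 h of the high dose and 53.3% at 48 h. With 1 array per group the change between times was not tested. Several of these signs are not settled: at 3 h Ccnd2, Cdk4, E2f1 and E2f3 differed by less than their scanner error, and Rbl1 was at 0.0047 as the mean of its probes. Against the 3 h control, the 48 h differences of Rb1 (0.07) and Ccnd1 (-1.81) had the other sign. The effect at 48 h minus that at 3 h was 3.11 for E2f2, 2.78 for Ccnd1, 2.49 for Ccnd2, 1.73 for E2f1, 1.19 for Cdk4, 1.19 for Rbl1, 1.13 for Ccnd3, 0.68 for E2f3 and -0.49 for Rb1. Of these, Ccnd1 had its large difference at 3 h (-2.43, against 0.35 at 48 h), whereas E2f2 (-0.28 and 2.83), Ccnd2 (-0.11 and 2.38) and E2f1 (-0.14 and 1.59) had it at 48 h. The 3 h differences of Cdk4 (-0.19), Rbl1 (-0.32), Ccnd3 (-0.53), E2f3 (-0.03) and Rb1 (0.32) were all below 2-fold.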

How the results depend on the processing

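Of 390 member differences recomputed under another setting, 346 moved by less than 1 scanner error, and 44 by more. Many of the 346 could hardly move. Dropping the filter left 60 values as they were, and another 60 came from the value table, which holds the same intensities. The mean of probes cannot change a gene with 1 probe. No difference called at first changed sign, but Ccnd1 at 48 h went from 0.35 to -1.81 against the 3 h control, and Ccnd1 at the low dose went from -0.07 to 2.09 against the 48 h control, both past 2-fold. Of the 44, 14 came from use of the 48 h control at 3 h and 7 from use of the 3 h control at 48 h. Against the 48 h control, 2 members were called at 3 h of the high dose (E2f1 and E2f2, both lower, and no longer Ccnd1 at -0.27) in place of 1. At the low dose 3 were called (Ccnd1 higher, E2f1 and E2f2 lower) in place of 0. The share of all genes called rose as well, from 3.30% to 5.05% at the high dose and from 1.37% to 5.34% at the low dose. Between the controls 1 member, Ccnd1, was called in place of 2 with median centring and with normexp, which was added after seeing the data. The share of all genes called there was 3.76% with median centring and 2.03% with normexp, in place of 3.87%. At 48 h of the high dose, in place of 4 members, 3 were called with quantile normalization and with normexp (without Cdk4). As the mean of probes 5 were called (without Cdk4, with E2f3 and Rbl1), and 5 against the 3 h control (without Cdk4, with Rbl1 higher and Ccnd1 lower). In place of 20.0% of all genes, 19.7% were called with quantile normalization, 14.8% with normexp, 19.4% as the mean of probes and 18.3% against the 3 h control. The limma fit called 0 members in every setting, where 4 genes of 20016 passed for the dose without the filter on dim probes and 0 in the other settings. No paired analysis was possible because the labels give no replicate numbers and each group holds 1 array, though the limma fit sets high dose against control within each time. Signal over background limits Ccnd1, Cdk6 and the second Rbl1 probe.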
